A study of Mus musculus with 120 samples.

Results

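Plantar skin of the left hind paw was compared on day 7 between 4 mice given paclitaxel and 4 mice given vehicle, across all genes. The members were chosen by tissue, day and treatment as the labels give them, which takes 8 of the 32 mice whose skin was sequenced, with 24 skin mice on the other days. All mice were males of the strain labelled C57B6/J, 6 weeks old, with no transgene or deletion named. The paclitaxel mice received 4 mg/kg intraperitoneally, in Cremophor and ethanol diluted in saline, on days 0, 2, 4 and 6, which adds up to 16 mg/kg, so the skin was taken 1 day after the last injection. The vehicle mice received the carrier alone. The study took other mice at pain onset (day 4), when pain began to resolve (day 11) and post pain (day 23), and day 7 stood for maximal pain sensitivity. The question of the day 7 comparison was which skin genes differ at that stage. Mice were housed 4 to a cage, and which mouse shared a cage is not given, so cage and treatment cannot be told apart.

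Paclitaxel binds tubulin, the protein of which microtubules are built, and stabilises them against depolymerisation. Dividing cells then stall in mitosis because the spindle cannot be remodelled, and long axons lose transport along microtubules. In epidermis the dividing cells are the basal keratinocytes, which feed the suprabasal layers that form the cornified barrier, and sensory axons end between them. Free tubulin feeds back on the stability of tubulin mRNA in mammalian cells. Skin is also a target of glucocorticoids, which act through a nuclear receptor and raise a small group of genes in almost every tissue.

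The day 7 libraries held 24114230 to 35274964 gene counts in paclitaxel mice and 27486324 to 37948971 in vehicle mice, with no 2 libraries of a group identical. Levels are given as CPM, the share of a library's counts scaled to a common total with TMM factors, always for mice 25, 26, 27 and 28 in the paclitaxel group and mice 17, 18, 19 and 20 in the vehicle group. Skin keratins were at very high levels in every mouse, from 53620 to 62200 CPM for Krt10, a suprabasal keratin, in paclitaxel mice and from 41400 to 56080 CPM in vehicle mice. Vehicle mice 18 and 19 stood apart: their skeletal muscle genes averaged 8.79 and 8.71 on the log2(CPM + 1) scale, against 3.97 and 4.44 in vehicle mice 17 and 20 and 4.58 to 7.09 in the paclitaxel mice. The first principal component of the 8 libraries, with 42.7% of the variance, set these 2 mice apart, and the second, with 18.1%, set paclitaxel mouse 25 apart. The main counts of members without overlap are also given without mice 18 and 19, an alternative added after seeing the data.

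Of 18578 genes tested, 1 passed an adjusted p of 0.05 in the edgeR quasi-likelihood test, which is 0.00538% of them. That gene was Fkbp5, and it fell in paclitaxel skin. At an unadjusted p under 0.05 there were 628 genes with higher and 478 with lower levels in paclitaxel mice, or 3.38% and 2.57%. DESeq2 called 32 genes and limma voom with quality weights 34, of which 21 were shared (65.6% of the DESeq2 calls and 61.8% of the voom calls). In 506 genes (2.72%) all 4 paclitaxel mice lay above all 4 vehicle mice, and in 558 (3%) all lay below. Without vehicle mice 18 and 19 these counts were 1233 (6.64%) and 1246 (6.71%), with fewer mice to separate, and on the deposited normalised counts of all 8 mice they were 519 (2.79%) and 551 (2.97%). The median log2 fold change over all genes tested was -0.01, with 48% of genes above 0 and 51.8% below. No other gene passed, so the values of the other genes are given as descriptions.

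Fkbp5, on the minus strand of chromosome 17 from 28399094 to 28517527 (GRCm38), encodes FKBP51, a partner of HSP90 that binds the glucocorticoid receptor, lowers the receptor's affinity for hormone and is itself induced by it. Its level was 27.9, 36.8, 45.4 and 27.1 CPM in paclitaxel mice, against 105, 107, 108 and 116 CPM in vehicle mice. The groups were far apart, and the vehicle mice lay within a narrow band. The means were 34.3 ± 8.6 CPM in paclitaxel skin and 109 ± 4.75 CPM in vehicle skin (SD, n = 4 each), a 3.18-fold lower level (log2 fold change -1.67, SE 0.23, adjusted p = 0.00162 in edgeR). With any 1 of the 32 libraries left out, the log2 fold change stayed between -1.83 and -1.57, and the adjusted p between 0.000272 and 0.0261. Over days 4, 7, 11 and 23 the paclitaxel mice averaged 37.8, 34.3, 32.9 and 40.6 CPM, and the vehicle mice 79.3, 109, 69.1 and 78.5 CPM. Fkbp5 also fell on day 11 (log2 fold change -1.07, adjusted p = 0.044) and day 23 (-0.95, adjusted p = 0.0161), days on which 0.285% and 4.71% of all genes passed, and on day 4 the estimate was -1.07 with an adjusted p of 0.21. The day 7 effect was -0.64 from the mean effect of the other days (SE 0.26, adjusted p = 0.439), a difference that did not pass. In bulk skin, fewer cells of a type and less RNA per cell cannot be told apart.

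Of 18 genes listed as glucocorticoid-responsive, Fkbp5 among them, all were tested and 16 had a log2 fold change below 0, with a median of -0.48 beside -0.01 over all genes. In 6 of them the paclitaxel mice lay wholly below the vehicle mice, where 3% of all genes did so, and without vehicle mice 18 and 19 the number was 7, where 6.71% of all genes did. Zbtb16, a zinc finger repressor that glucocorticoids raise in many cells, had 30.9, 30.1, 23.7 and 16.4 CPM in paclitaxel mice, against 53.7, 53.5, 93.9 and 88 CPM in vehicle mice (log2 fold change -1.51, SE 0.33, adjusted p = 0.154). The 2 vehicle mice with the highest Zbtb16 were mice 19 and 20, 1 with high and 1 with low muscle levels. Over days 4, 7, 11 and 23 Zbtb16 averaged 58.5, 72.3, 20.9 and 45.6 CPM in vehicle mice. In paclitaxel mice it averaged 48.9, 25.3, 17.9 and 53 CPM. Its log2 fold changes on days 4, 11 and 23 were -0.26, -0.22 and 0.22. Tsc22d3 encodes GILZ, which carries part of the anti-inflammatory action of glucocorticoids. It had 121, 138, 102 and 124 CPM in paclitaxel mice, against 205, 190, 245 and 240 CPM in vehicle mice (-0.86, SE 0.24, adjusted p = 0.394). Klf9, a transcription factor induced by the receptor, had 36.1, 45.1, 45.6 and 38.4 CPM in paclitaxel mice, against 68.7, 79.2, 71.7 and 62.6 CPM in vehicle mice (-0.77, SE 0.26). Sgk1, a kinase first found as serum- and glucocorticoid-induced, had 127, 158, 218 and 188 CPM in paclitaxel mice, against 220, 244, 243 and 273 CPM in vehicle mice, so that its highest paclitaxel mouse lay just below its lowest vehicle mouse. Hif3a was the other gene of the 6, with 0.371 to 0.775 CPM in paclitaxel mice and 1.23 to 1.42 CPM in vehicle mice.

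The other 12 listed genes overlapped between groups. Per1, a clock gene that hormone also raises, had 131, 253, 146 and 136 CPM in paclitaxel mice, against 238, 238, 229 and 258 CPM in vehicle mice, with paclitaxel mouse 26 alone at the vehicle level. The metallothionein genes Mt1 and Mt2, which bind zinc and respond to hormone and to metals, had log2 fold changes of -0.16 and -0.14. Cdkn1a, the cell cycle inhibitor p21 and also a target of p53, averaged 426 ± 30.2 CPM in paclitaxel skin and 403 ± 48.1 CPM in vehicle skin. Of 18 circadian clock genes, Per1 included, 1 lay wholly lower, where 3% of all genes did (3 without vehicle mice 18 and 19, where 6.71% did), and their median was -0.08. The glucocorticoid-responsive list had medians of -0.22, -0.25 and -0.26 on days 4, 11 and 23. In vehicle mice the list's median on day 7, relative to the other vehicle days, was 0.27, and 13 of 18 members were above 0, with none past the test. In paclitaxel mice it was 0.01 relative to the other paclitaxel days.

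**Figure D1:**
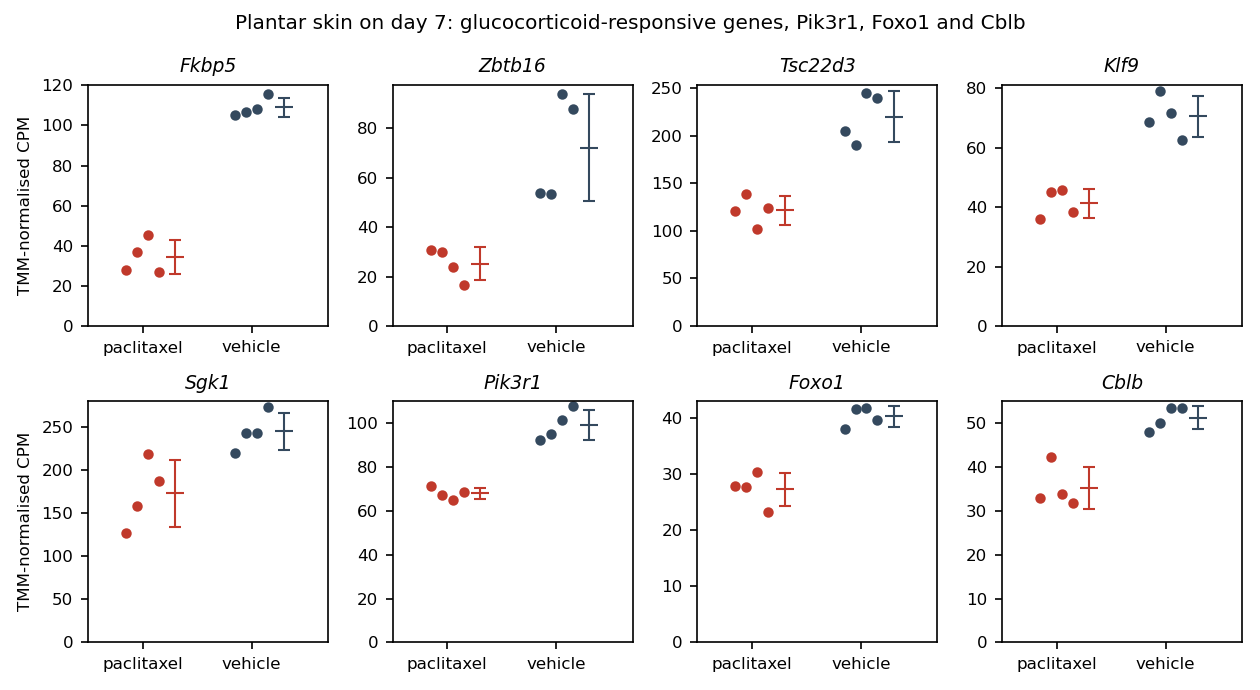
Each point is 1 mouse on day 7, with TMM-normalised CPM on the vertical axis, and the bar beside each group gives the mean ± SD of 4 mice. Paclitaxel mice lie below vehicle mice in all 8 panels, with Fkbp5 at 27.1 to 45.4 CPM against 105 to 116 CPM and Sgk1 closest to overlap.

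After Fkbp5 the smallest p-values among genes with lower levels were those of Pik3r1, Jade2 and Foxo1, each with an adjusted p of 0.101. Pik3r1 encodes the p85 alpha regulatory subunit of phosphoinositide 3-kinase, which couples growth factor receptors to AKT. It had 71, 67.1, 64.8 and 68.5 CPM in paclitaxel mice, against 92.2, 94.8, 101 and 108 CPM in vehicle mice (log2 fold change -0.54, SE 0.10). Foxo1 encodes a transcription factor that AKT holds out of the nucleus. Its level was 27.9, 27.6, 30.4 and 23.3 CPM in paclitaxel mice, against 38, 41.6, 41.9 and 39.6 CPM in vehicle mice (-0.56, SE 0.11). Cblb, a ubiquitin ligase that restrains receptor signalling, had 32.9, 42.3, 33.9 and 31.7 CPM in paclitaxel mice, against 48.1, 50, 53.4 and 53.4 CPM in vehicle mice (-0.54, SE 0.14, adjusted p = 0.301). The ubiquitin ligase gene Jade2, whose product acts in histone acetylation complexes, had 21.8 to 25.9 CPM in paclitaxel mice and 38.4 to 40.4 CPM in vehicle mice (-0.68, SE 0.13). In none of these 4 genes did the groups overlap. Pik3r1 and Jade2 passed with the skeletal muscle level as a covariate and with 1 surrogate variable, and both passed together with Foxo1 in DESeq2 and voom. On days 4, 11 and 23 the log2 fold changes of Foxo1 were -0.02, -0.49 and -0.40, with adjusted p of 0.044 on day 11 and 0.0325 on day 23, and those of Pik3r1 were -0.13, -0.24 and -0.13.

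The genes of mitosis were higher in paclitaxel skin in all 20 of 20 listed members by estimate, though none passed the edgeR test. In 17 of the 20 the paclitaxel mice lay wholly above the vehicle mice, where 2.72% of all genes did so, and 17 had an unadjusted p under 0.05, where 3.38% of all genes did. The median log2 fold change was 0.57, over a range of 0.39 to 0.82, beside -0.01 over all genes. DESeq2 called 6 of the 20 among its 32 calls and voom 7 among its 34, while 2 passed with the 8 day 7 libraries alone and 0 with 1 surrogate variable or with the skeletal muscle covariate. Without vehicle mice 18 and 19 the number wholly above was again 17, where 6.64% of all genes were. Averaged over the list, log2(CPM + 1) was 5.32, 5.16, 4.99 and 4.92 in paclitaxel mice, against 4.71, 4.23, 4.42 and 4.65 in vehicle mice. The 2 lowest vehicle mice were those with the high muscle level, and mice 17 and 20 still lay below every paclitaxel mouse.

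Mki67, which encodes the Ki-67 protein that coats mitotic chromosomes and marks cycling cells, had 221, 168, 161 and 159 CPM in paclitaxel mice, against 113, 91.1, 105 and 115 CPM in vehicle mice (log2 fold change 0.74, SE 0.17, adjusted p = 0.168). Cenpf, a kinetochore protein gene on chromosome 1, had 45.6, 40.2, 34.5 and 29.3 CPM in paclitaxel mice, against 24.9, 18.5, 17.6 and 24.2 CPM in vehicle mice (0.81, SE 0.18, adjusted p = 0.147). Cdc20 activates the anaphase-promoting complex and is what the spindle checkpoint holds back when kinetochores are unattached. Its level was 66, 55.4, 45.6 and 46.8 CPM in paclitaxel mice, against 39.7, 25.1, 26.6 and 31.5 CPM in vehicle mice (0.80, SE 0.20). Ccnb1, the mitotic cyclin B1, had 26.4, 28.2, 24.6 and 20.6 CPM in paclitaxel mice, against 17.4, 10.4, 14.3 and 17.6 CPM in vehicle mice (0.74, SE 0.19). Plk1, Aurkb and Bub1b, which encode kinases of spindle assembly and of the checkpoint, had estimates of 0.80, 0.54 and 0.55. In each of these genes mouse 25 or 26 was the highest of the 8. The kinesin genes Cenpe, Kif11 and Kif20a, whose motors move chromosomes and spindle poles, had estimates of 0.82, 0.55 and 0.74. Only Aurka, Bub1 and Ube2c overlapped between groups. Beyond the list, Kif23 (31.9 to 48.2 CPM in paclitaxel mice and 21.4 to 28.6 CPM in vehicle mice) and Kif14 (8.64 to 12.2 CPM in paclitaxel mice and 4.8 to 6.91 CPM in vehicle mice), kinesins of cytokinesis, were also among the 12 genes with the smallest p and higher levels. Depdc1b, known in human cells as a mitotic regulator, had 2.23 to 3.64 CPM in paclitaxel mice and 0.886 to 1.31 CPM in vehicle mice.

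Promoters of 3 of these genes are shown because late cell cycle genes share 2 short elements: TTTGAA, the cell cycle homology element read by MuvB complexes, and CCAAT, read by NF-Y. They run 5′ to 3′ from 250 bases before to 50 bases after the RefSeq start site in GRCm38.p6, all on the minus strand, with either motif on either strand in capitals (TTCAAA and ATTGG on the other strand). Cenpf is at chr1:189688037-189688336, Mki67 at chr7:135716330-135716629 and Cdc20 at chr4:118437294-118437593.
Cenpf: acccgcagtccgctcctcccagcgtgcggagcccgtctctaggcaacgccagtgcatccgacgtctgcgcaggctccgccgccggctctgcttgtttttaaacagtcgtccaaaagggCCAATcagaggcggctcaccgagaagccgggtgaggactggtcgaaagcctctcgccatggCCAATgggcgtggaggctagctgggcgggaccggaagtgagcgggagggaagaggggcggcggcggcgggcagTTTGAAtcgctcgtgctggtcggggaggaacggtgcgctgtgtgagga
Mki67: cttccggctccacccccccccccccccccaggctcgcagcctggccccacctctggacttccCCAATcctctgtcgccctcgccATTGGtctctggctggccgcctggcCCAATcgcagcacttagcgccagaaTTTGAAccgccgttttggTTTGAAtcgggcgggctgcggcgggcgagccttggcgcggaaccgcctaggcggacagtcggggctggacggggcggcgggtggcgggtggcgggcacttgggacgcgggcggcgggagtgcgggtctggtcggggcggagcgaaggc
Cdc20: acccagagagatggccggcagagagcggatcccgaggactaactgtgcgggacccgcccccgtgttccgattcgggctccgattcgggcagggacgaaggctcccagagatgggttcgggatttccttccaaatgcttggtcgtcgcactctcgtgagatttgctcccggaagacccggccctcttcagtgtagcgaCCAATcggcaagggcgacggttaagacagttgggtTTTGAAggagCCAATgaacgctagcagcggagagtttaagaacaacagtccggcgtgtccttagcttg
Cenpf holds 1 TTTGAA just after its start site and 2 CCAAT, Mki67 holds 2 TTTGAA and 3 CCAAT upstream, and Cdc20 holds 1 TTTGAA between 2 CCAAT. Of the 20 mitotic genes 16 matched a promoter, and 12 of these (75%) held TTTGAA and 15 (93.8%) held CCAAT. Over the promoters of 27025 genes the shares were 20.2% and 41.1%. Ccnb1, Bub1, Cenpe and Birc5 had no TTTGAA in this window. Of 13 DNA replication genes with a promoter, 2 (15.4%) held TTTGAA and 9 (69.2%) held CCAAT. A match describes letters and is no measure of binding.

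DNA replication genes gave smaller estimates. None of 16 listed genes separated the groups, and none had an unadjusted p under 0.05 or passed in edgeR, although 15 of the 16 estimates were above 0, with a median of 0.10. Without vehicle mice 18 and 19, 2 of the 16 lay wholly above, where 6.64% of all genes did. Pcna, the sliding clamp of replication forks, had 73, 68.7, 69.8 and 73 CPM in paclitaxel mice, against 62.6, 56, 74.6 and 79.1 CPM in vehicle mice (log2 fold change 0.06, SE 0.10). Mcm2, a subunit of the replicative helicase, averaged 31.9 ± 4.64 CPM in paclitaxel skin and 31.5 ± 1.96 CPM in vehicle skin. Rrm2, the subunit of ribonucleotide reductase made in S phase, had 35.4 to 39.5 CPM in paclitaxel mice and 26.5 to 38.3 CPM in vehicle mice (0.27, SE 0.14). The difference between the mitotic and the replication list was not itself tested. The 13 tested p53 target genes, whose products arrest or kill damaged cells, had a median of -0.04. Of these 1 lay above and 1 below without overlap, where 2.72% and 3% of all genes did. Without vehicle mice 18 and 19 the numbers were 2 and 1, where 6.64% and 6.71% of all genes did. The one above with all mice was Sesn2, a stress-induced inhibitor of mTORC1 signalling, with 46, 53.3, 41.4 and 31.6 CPM in paclitaxel mice, against 29.9, 27.2, 25.5 and 29.7 CPM in vehicle mice (0.62, SE 0.17, adjusted p = 0.383).

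**Figure D2:**
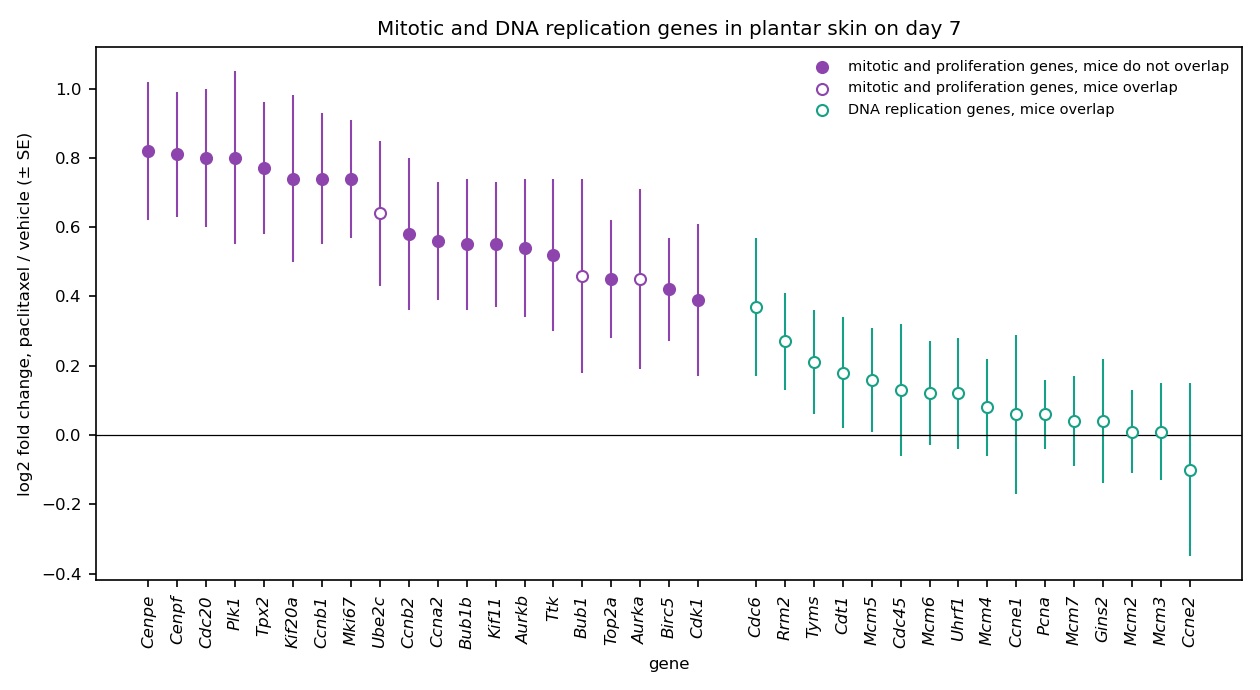
The vertical axis gives the log2 fold change of paclitaxel over vehicle on day 7 with its SE, for 20 mitotic genes on the left and 16 DNA replication genes on the right, filled where the 4 paclitaxel and 4 vehicle mice do not overlap. The mitotic genes run from 0.39 to 0.82, with 17 filled, and the replication genes from -0.10 to 0.37, with none filled.

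The tubulin genes encode the subunits that paclitaxel binds as polymer. Of 14 listed genes 13 had estimates above 0 on day 7, with a median of 0.25, and in 4 of them, Tuba4a, Tuba8, Tubb4b and Tubb5, the paclitaxel mice lay wholly above the vehicle mice, where 2.72% of all genes did. The number was again 4 without mice 18 and 19, where 6.64% of all genes did. Tubb4b, a beta tubulin found in most tissues, had 493, 527, 542 and 528 CPM in paclitaxel mice, against 425, 359, 368 and 406 CPM in vehicle mice (log2 fold change 0.42, SE 0.09, adjusted p = 0.147). Tuba4a, the alpha tubulin that is made without the last tyrosine, had 990, 961, 880 and 983 CPM in paclitaxel mice, against 805, 712, 706 and 768 CPM in vehicle mice (0.35, SE 0.12). Tuba8 averaged 227 ± 36.1 CPM in paclitaxel skin and 163 ± 16.4 CPM in vehicle skin, and Tubb5 410 ± 14.6 CPM in paclitaxel skin and 364 ± 8.41 CPM in vehicle skin. In Tuba8 the groups nearly met. The gamma tubulin Tubg1, which seeds microtubules and is not part of their wall, averaged 34.5 ± 2.49 CPM in paclitaxel skin and 33.6 ± 2.21 CPM in vehicle skin, with an estimate of 0.04. Tubb3, often used as a neuronal tubulin, had 87.3 to 106 CPM in paclitaxel mice and 67.9 to 96.1 CPM in vehicle mice, an overlap. Tubulin genes are near copies of each other, so reads may be lost or given to the wrong copy. How far this affects each gene, Tubb2a and Tubb2b included, was not measured.

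The tubulin estimates did not hold their sign over the days. The list's medians on days 4, 7, 11 and 23 were -0.14, 0.25, 0.02 and -0.10. Tubb4b averaged 339, 522, 467 and 358 CPM in paclitaxel mice on those days, and in vehicle mice 387, 389, 458 and 424 CPM. Its day 7 effect exceeded its day 23 effect by 0.67 (SE 0.13, adjusted p = 0.0428 in edgeR). Among paclitaxel mice alone, with no vehicle mice in the contrast, Tubb4b was higher on day 7 than on the other days by 0.44 (SE 0.07, adjusted p = 0.00696). Tubb2b was higher by 0.77 (adjusted p = 0.00696) and Tubb2a by 0.64 (adjusted p = 0.0155), while the same contrast in vehicle mice gave -0.12 for Tubb4b, 0.10 for Tubb2b and -0.01 for Tubb2a. Skeletal muscle genes had a median of -2.55 in the contrast of paclitaxel mice, with 0 of 16 above 0. On the log2(CPM + 1) scale their level in paclitaxel mice was 4.58 to 7.09 on day 7 and 9.46 to 10.67 on days 4 and 23. On day 11 it was 2.30 to 7.04, so day 7 was not alone in its low level. With 1 surrogate variable or with the muscle covariate none of the 3 tubulins passed, with adjusted p of up to 0.257 for Tubb4b and Tubb2b and 0.412 for Tubb2a. The day 7 to day 23 calls depended on the libraries used: with 1 library left out, 1 to 1528 genes passed, with 1528 without vehicle mouse 52 of day 23 and 1 without vehicle mouse 19 of day 7, and none passed without mice 18 and 19 together or with 1 surrogate variable.

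The Tubb4b promoter is at chr2:25224653-25224952 on the minus strand of GRCm38.p6. Of 11 matched tubulin promoters 1 (9.09%) holds TTTGAA, where 20.2% over all genes do, and this one is shown. It is printed as the promoters above.
Tubb4b: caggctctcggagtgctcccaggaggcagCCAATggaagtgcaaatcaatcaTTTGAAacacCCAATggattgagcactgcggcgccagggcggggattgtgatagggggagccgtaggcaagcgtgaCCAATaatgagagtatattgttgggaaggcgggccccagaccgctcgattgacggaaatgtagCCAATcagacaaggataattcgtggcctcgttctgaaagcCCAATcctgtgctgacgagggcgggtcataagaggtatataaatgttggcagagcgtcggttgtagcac
It also holds 5 CCAAT, and 5 of the 11 tubulin promoters (45.5%) hold at least 1, where 41.1% over all genes do.

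**Figure D3:**
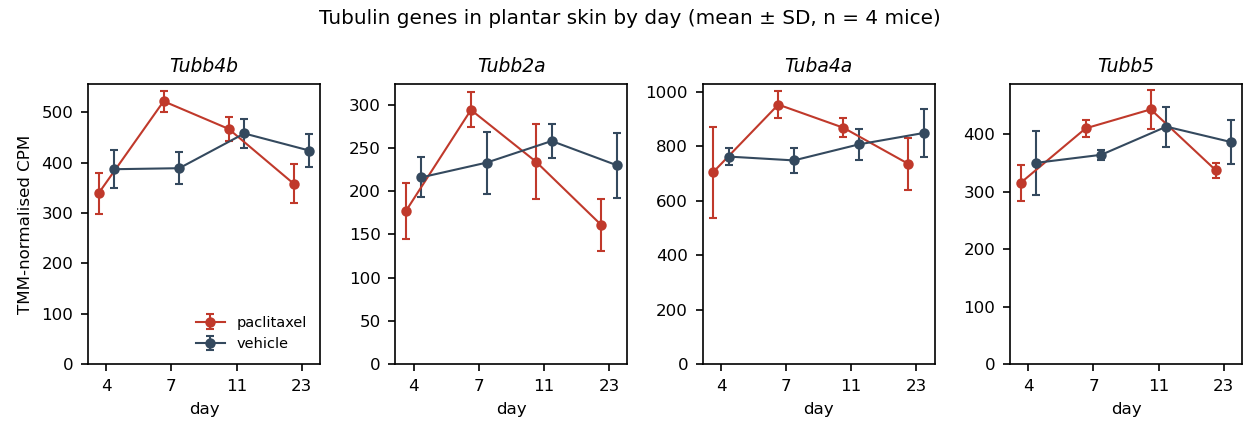
Mean TMM-normalised CPM ± SD of 4 mice per group is plotted against day for Tubb4b, Tubb2a, Tuba4a and Tubb5, with paclitaxel and vehicle mice in separate lines. Paclitaxel skin was above vehicle skin on day 7 in all 4 panels by mean, at 522 against 389 CPM for Tubb4b, and below it on days 4 and 23.

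Genes of cholesterol synthesis, which SREBP2 raises together when sterols are low and whose products the epidermal barrier needs, were mostly lower in paclitaxel skin by estimate. Of 19 listed genes 17 had estimates below 0, with a median of -0.40, and in 4 of them, Mvd, Nsdhl, Fdps and Hsd17b7, the paclitaxel mice lay wholly below the vehicle mice, where 3% of all genes did so. None passed in edgeR, and 8 had an unadjusted p under 0.05, where 2.57% of all genes did. Mvd makes isopentenyl pyrophosphate from mevalonate pyrophosphate. It had 50.9, 55.4, 70.3 and 59.8 CPM in paclitaxel mice, against 100, 88.5, 85 and 90.6 CPM in vehicle mice (log2 fold change -0.62, SE 0.16, adjusted p = 0.327). Nsdhl, which removes a methyl group from sterols, had 30.3, 32.7, 41.9 and 31.1 CPM in paclitaxel mice, against 50.8, 43.5, 47.4 and 62 CPM in vehicle mice (-0.58, SE 0.16). In Hmgcs1 and Sqle, which encode enzymes early in the pathway and at the start of its sterol part, paclitaxel mouse 27 lay among the vehicle mice. Mvd and Nsdhl passed in the fit with 1 surrogate variable, and Mvd also in voom. Without vehicle mice 18 and 19 the list had 8 genes wholly lower, where 6.71% of all genes were. The list's medians on days 4, 11 and 23 were -0.47, 0.02 and -0.28.

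All 12 matched promoters of this list held CCAAT (100%) and none held TTTGAA, beside 41.1% and 20.2% over all genes. The Mvd promoter is shown as the one with the smallest p, from chr8:122443373-122443672 on the minus strand of GRCm38.p6, printed as above.
Mvd: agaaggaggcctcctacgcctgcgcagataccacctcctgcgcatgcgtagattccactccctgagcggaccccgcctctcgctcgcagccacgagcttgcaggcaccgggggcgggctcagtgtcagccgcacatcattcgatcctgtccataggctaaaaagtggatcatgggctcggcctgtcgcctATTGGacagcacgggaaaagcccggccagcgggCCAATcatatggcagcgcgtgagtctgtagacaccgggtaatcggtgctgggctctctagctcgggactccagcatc
It holds CCAAT on both strands, within the last 60 bases before the start site.

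The matrix metalloproteinases, which cut the extracellular matrix and basement membrane, and their inhibitors the TIMPs gave large estimates only at low counts. Mmp9, a gelatinase made by keratinocytes at wound edges and by neutrophils, had 6.26, 5.73, 3.29 and 1.98 CPM in paclitaxel mice, against 0.0709, 0.492, 0.817 and 0.722 CPM in vehicle mice. The groups did not overlap, and the estimate was 3.01 (SE 0.72, adjusted p = 0.275) on 539 counts in paclitaxel mice and 74 in vehicle mice. Its log2 fold change on days 4, 11 and 23 was -1.36, 2.30 and -1.04. Timp4, an inhibitor best known in heart and fat, had 0.179, 0.87, 0.842 and 0.247 CPM in paclitaxel mice, against 2.16, 3.76, 3.06 and 2.86 CPM in vehicle mice (-2.46, SE 0.61, adjusted p = 0.301), on 64 counts in paclitaxel mice and 391 in vehicle mice. Of 16 tested genes in this list, 2 lay wholly above and 1 wholly below, where 2.72% and 3% of all genes did, and the median was 0.16. Without vehicle mice 18 and 19 the numbers were 5 and 1, where 6.64% and 6.71% of all genes did. Mmp2, Mmp14 and Timp2, the members with high levels, had estimates of 0.03, 0.13 and -0.16 with overlapping mice.

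The 6 skin genes that the study plotted were compared by exact permutation (two-sided) of the normalised counts, in which 4 against 4 mice cannot go below p = 0.0286. The collagenase gene Mmp13 had 46.1, 42.8, 28.3 and 5.34 normalised counts in paclitaxel mice, against 2.29, 2.29, 5.97 and 0.861 in vehicle mice, a mean of 30.6 ± 18.5 in paclitaxel skin and 2.85 ± 2.19 in vehicle skin (SD, n = 4 each, exact permutation p = 0.0571, 0.171 adjusted over the 6 genes). Paclitaxel mouse 28, with 4 raw counts, lay within the vehicle range of 1 to 7. The tight junction gene Cldn22 had 0, 2.92, 0 and 1.33 normalised counts in paclitaxel mice, against 6.87, 8, 17.1 and 5.17 in vehicle mice (exact permutation p = 0.0286, adjusted 0.171), on 4 raw counts in the paclitaxel group and 39 in the vehicle group. Timp3, the matrix-bound inhibitor, averaged 6950 ± 753 in paclitaxel skin and 8201 ± 878 in vehicle skin (exact permutation p = 0.0857, n = 4 each). The housekeeping genes Tbp, Rplp0 and Pgk1 had overlapping mice, with means of 592 ± 65.6, 81875 ± 1768 and 3448 ± 208 in paclitaxel skin and 588 ± 65.4, 80626 ± 1530 and 3489 ± 330 in vehicle skin. None of the 6 passed after adjustment, but a gene could not pass on its own with this number of mice. Cldn22 was at the smallest possible p of 0.0286 and still had an adjusted p of 0.171. The adjusted values therefore cannot decide whether Mmp13 or Cldn22 changed on day 7. The paper, which used a different test, reports a significant rise of Mmp13 and a significant fall of Cldn22 in paclitaxel skin.

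The alarmin pair S100a8 and S100a9, whose products form calprotectin and are made by neutrophils and stressed keratinocytes, was near absent from the vehicle skin of day 7. S100a9 had 85, 68, 96 and 61 raw counts in paclitaxel mice, against 0 in each of the 4 vehicle mice. Set against a floor of 3 counts over the vehicle group, or 0.0227 CPM, its level was at least 115-fold higher in paclitaxel skin. S100a8 had 3.85, 2.79, 4.17 and 5.28 CPM in paclitaxel mice, against 0.283, 0.914, 0.896 and 0.294 CPM in vehicle mice (log2 fold change 2.74, SE 0.92, adjusted p = 0.57 in edgeR). The adjusted p of S100a9 was 0.467 in edgeR, while DESeq2 called it. The edgeR fit of the 8 day 7 libraries alone called S100a9 (adjusted p = 0.000794) and S100a8 (adjusted p = 0.0133). Neither gene passed in voom, with 1 surrogate variable or with the skeletal muscle covariate. The defining neutrophil genes were at or near 0: Ngp, Retnlg, Ly6g and Mmp8 had 0 counts in all 8 libraries and Camp, Ltf, Mpo and Elane 3 or 4 in total, so 4 of 12 neutrophil markers were tested. The mean neutrophil level over those 4 was 1.81 to 2.04 in paclitaxel mice and 0.87 to 1.05 in vehicle mice on the log2(CPM + 1) scale, with S100a8 and S100a9 themselves among the 4. Cxcr2, a chemokine receptor of neutrophils, had 5.28 to 6.95 CPM in paclitaxel mice and 4.56 to 7.05 CPM in vehicle mice.

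Other wound keratins and alarmins varied between mice. Krt6a, a keratin of activated epidermis, had 142, 165, 319 and 230 CPM in paclitaxel mice, against 144, 128, 122 and 142 CPM in vehicle mice, where 1 paclitaxel mouse reached the vehicle range and mouse 27 lay far above it. Over the 14 tested genes of this list the median was 0.27, and 13 were above 0. S100a8 and S100a9 alone did not overlap, where 2.72% of all genes lay wholly above. Without vehicle mice 18 and 19 there were 3 such genes, where 6.64% of all genes lay wholly above. The suprabasal and cornified envelope genes had all 23 tested estimates above 0, with a median of 0.21 and a highest value of 0.67 for Ivl. Ivl encodes involucrin, an early envelope protein, and had 165, 130, 83.8 and 82.3 CPM in paclitaxel mice, against 78.7, 73.7, 57.4 and 79.4 CPM in vehicle mice (adjusted p = 0.637 in edgeR). It was the only 1 of the 23 genes without overlap, where 2.72% of all genes lay wholly above. Flg, the precursor of the filaggrin that bundles keratin filaments, averaged 4426 ± 1049 CPM in paclitaxel skin and 3228 ± 728 CPM in vehicle skin. The 2 vehicle mice lowest in Ivl, Flg and Krt10 were mice 18 and 19. This list's medians on days 4, 11 and 23 were -0.52, -0.03 and -0.50. Basal keratinocyte genes had a median of 0.08, desmosome genes of 0.12, tight junction genes of 0.09 and basement membrane genes of -0.02. Fibrillar collagen genes, with Col1a1 at 1152 to 1914 CPM in paclitaxel mice and 862 to 1340 CPM in vehicle mice, had a median of 0.18, and none separated the groups.

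Of the resident immune cells, macrophage markers had 18 of 19 estimates above 0, with a median of 0.38, and 1 gene lay wholly above, where 2.72% of all genes did (5 without vehicle mice 18 and 19, where 6.64% did). Adgre1, which encodes the F4/80 antigen, had 5.96, 4.8, 5.49 and 5.94 CPM in paclitaxel mice, against 3.33, 2.42, 5.3 and 3.02 CPM in vehicle mice (adjusted p = 0.842). Csf1r, the receptor that macrophages and Langerhans cells need to survive, had 49.5 to 62.4 CPM in paclitaxel mice and 32.7 to 57.6 CPM in vehicle mice. In both genes vehicle mouse 19 reached the paclitaxel range. Langerhans and dendritic markers had 11 of 12 estimates above 0 and a median of 0.28, with Cd74, the class II invariant chain, at 159 to 239 CPM in paclitaxel mice and 111 to 193 CPM in vehicle mice. T cell markers had a median of 0.21, mast cell markers of -0.06 and interferon-stimulated genes of -0.07. The chemokine and cytokine list had a median of 0.47, with Il1a, an alarm cytokine of keratinocytes, at 32.1, 28.9, 19.8 and 15.7 CPM in paclitaxel mice, against 14.7, 11.6, 13.1 and 16.4 CPM in vehicle mice. Ccl11, the eosinophil chemokine eotaxin, ran the other way, with 5.07 to 7.45 CPM in paclitaxel mice and 8.55 to 12.6 CPM in vehicle mice. Among the immediate early genes paclitaxel mouse 26 was high, with Fosl1 at 20.9 CPM and Jun at 249 CPM beside 1.16 to 11.8 CPM and 120 to 131 CPM in the other paclitaxel mice, and vehicle mice had 1.11 to 2.97 CPM of Fosl1 and 99 to 116 CPM of Jun.

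Several of the 12 genes with the smallest p in each direction belong to no list. Trpv4, a calcium channel of keratinocytes and sensory neurons that opens to warmth and cell swelling, had 50, 55.1, 30.5 and 45.2 CPM in paclitaxel mice, against 27.3, 30.4, 22.2 and 30.6 CPM in vehicle mice. The groups overlapped by 1 mouse, and the estimate was 0.71 (SE 0.15, adjusted p = 0.147). Its day 7 effect exceeded its day 23 effect by 1.11 (SE 0.22, adjusted p = 0.0428), a call that was lost with 1 surrogate variable, with the muscle covariate and without vehicle mice 18 and 19, where the adjusted p was 0.46. Bcl11a, a transcriptional repressor, had 75.2, 80, 75.9 and 73 CPM in paclitaxel mice, against 48, 46.6, 52.6 and 60.5 CPM in vehicle mice, with a clear gap (0.55, SE 0.12, adjusted p = 0.147). Tmem229b had 89.5 to 144 CPM in paclitaxel mice and 52.4 to 83.7 CPM in vehicle mice, and Fam120b 35.1 to 44.4 CPM in paclitaxel mice and 27 to 32.8 CPM in vehicle mice. On the lower side, Adamts15, a matrix protease, had 2.09 to 2.97 CPM in paclitaxel mice and 4.81 to 7.34 CPM in vehicle mice (-1.20, SE 0.29, adjusted p = 0.275). Creb5, a transcription factor of the CRE-binding family, had 5.1 to 9.73 CPM in paclitaxel mice and 10.1 to 20 CPM in vehicle mice. Kcnh2, a potassium channel gene best known from heart muscle, had 0.206 to 0.695 CPM in paclitaxel mice and 1.62 to 2.2 CPM in vehicle mice (-2.29, SE 0.59). Bcar3, an adaptor of integrin signalling, had 7.95 to 11.8 CPM in paclitaxel mice and 11.8 to 15.9 CPM in vehicle mice, where the groups met. None of these passed in edgeR.

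**Figure D4:**
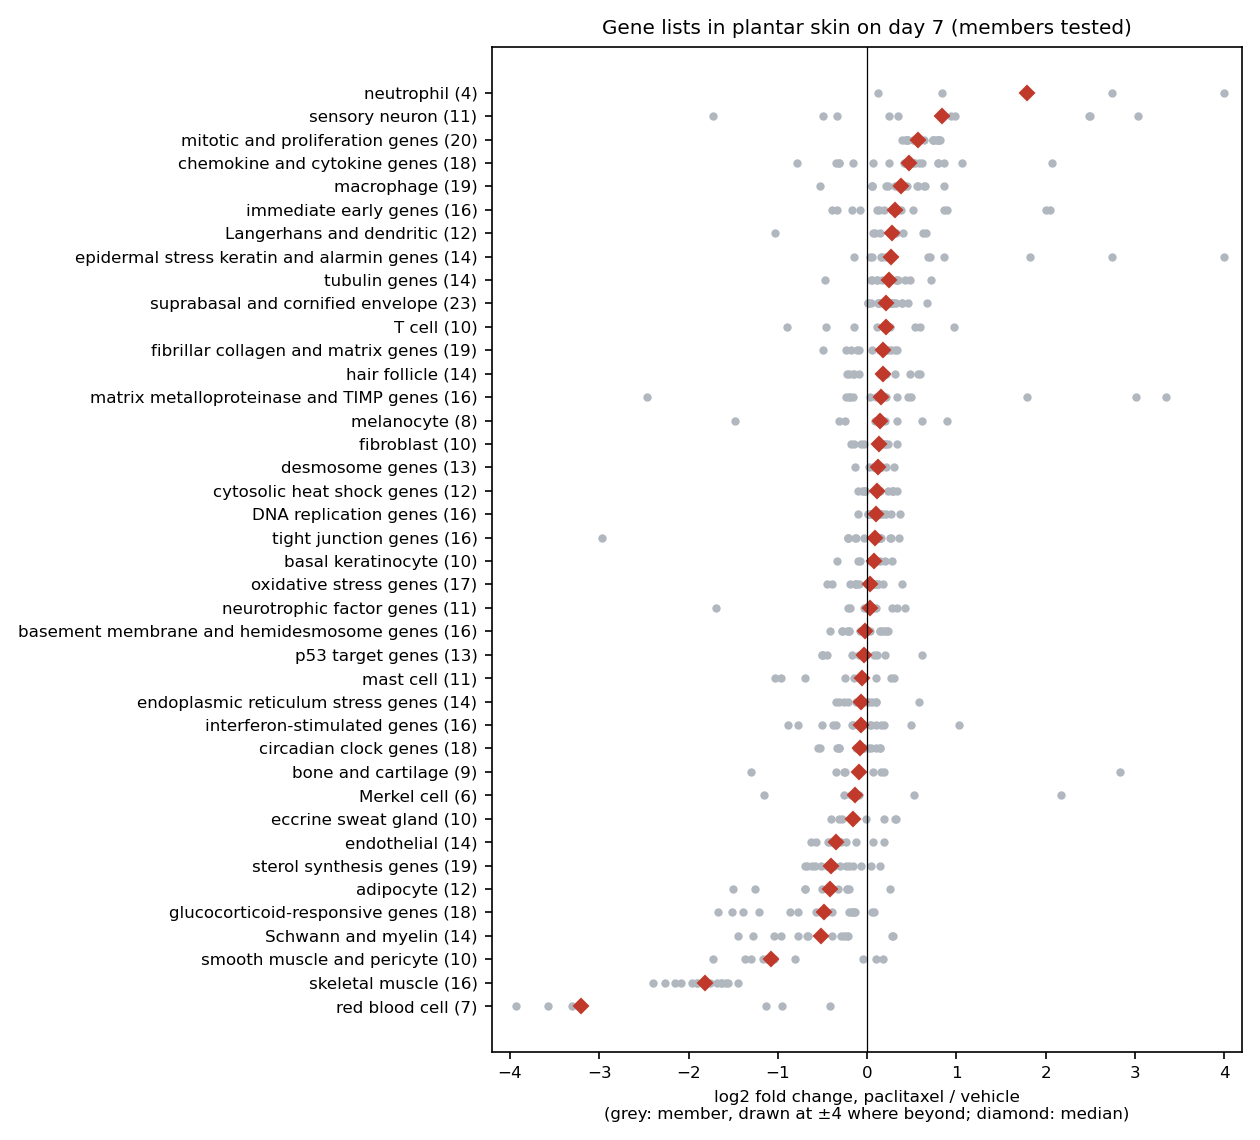
Each row is 1 gene list with its number of tested members, grey points are the members' log2 fold changes of paclitaxel over vehicle on day 7 (drawn at 4 or -4 where beyond) and the diamond is the list's median. The mitotic list lies wholly above 0, at a median of 0.57, and the glucocorticoid-responsive list mostly below it, at -0.48, with skeletal muscle at -1.82 and red blood cell genes at -3.21.

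The lists with the lowest medians were those of tissue below the epidermis. Skeletal muscle genes had a median of -1.82 with none of 16 separating the groups. Atp2a1, the calcium pump of fast muscle, had 603, 155, 89.1 and 204 CPM in paclitaxel mice, against 54.3, 2020, 1917 and 93.8 CPM in vehicle mice, so mice 18 and 19 alone set its vehicle mean. Without them 9 of the 16 were wholly higher in paclitaxel mice, where 6.64% of all genes were, and the estimate of Atp2a1 turned to 1.82. Over all 32 skin mice the list's level ran from 2.03 to 11.22 on the log2(CPM + 1) scale. Red blood cell genes had a median of -3.21, with Hbb-bs, a beta globin gene, at 0.403 to 4.33 CPM in paclitaxel mice, against 13.3 and 68 CPM in vehicle mice 17 and 18 and 0.882 to 1.03 CPM in vehicle mice 19 and 20. Without vehicle mouse 18 this median was -1.39.

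Smooth muscle and pericyte genes had a median of -1.08. Their mean level was highest in vehicle mice 19 and 18, at 6.73 and 6.55, but Acta2 and Tagln were highest in vehicle mouse 17. Acta2, the smooth muscle actin, had 159, 161, 203 and 172 CPM in paclitaxel mice, against 563, 398, 448 and 302 CPM in vehicle mice (log2 fold change -1.30, SE 0.58, adjusted p = 0.813). Tagln, an actin-binding protein gene of the same cells, had 58.4, 51, 65.6 and 63.8 CPM in paclitaxel mice, against 209, 143, 154 and 113 CPM in vehicle mice (-1.37, SE 0.58). The pericyte gene Rgs5, which restrains G protein signalling, had 47.1, 61.6, 76.4 and 78.4 CPM in paclitaxel mice, against 157, 137, 179 and 121 CPM in vehicle mice (-1.17, SE 0.44). Together with Myh11, these genes separated the groups with and without mice 18 and 19. They were 4 of the 10 listed, where 3% of all genes lay wholly lower with all mice and 6.71% without those 2. Within the 8 libraries of day 7 fitted alone all 4 passed, among 47 calls of which 37 were lower in paclitaxel skin. In the fit of 32 libraries, which takes the spread from all days, none did.

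Schwann cell and myelin genes had a median of -0.52, with 12 of 14 estimates below 0. Mbp, a major myelin protein gene, had 78.9, 75.7, 68 and 73.8 CPM in paclitaxel mice, against 79.9, 147, 163 and 115 CPM in vehicle mice (log2 fold change -0.77, SE 0.28, adjusted p = 0.651). Pmp22 had 124 to 156 CPM in paclitaxel mice and 171 to 293 CPM in vehicle mice. The highest values of both were those of vehicle mice 18 and 19. Mag and Ncmap also separated the groups, while the Schwann lineage markers Sox10 and Cdh19 had estimates of -0.22 and -0.21 with overlap. In all, 4 of the 14 lay wholly lower, where 3% of all genes did. L1cam, an adhesion molecule of axons and Schwann cells, lay above, with 55.5 to 75 CPM in paclitaxel mice and 49.1 to 54.3 CPM in vehicle mice. Of 16 sensory neuron genes 11 were tested, and 1 lay wholly above, where 2.72% of all genes did. It was Avil, an actin regulator of sensory neurons, with 2.19 to 3.17 CPM in paclitaxel mice and 1.02 to 1.69 CPM in vehicle mice (adjusted p = 0.757 in edgeR). Endothelial and adipocyte genes had medians of -0.35 and -0.42. The part of these tissue levels in the glucocorticoid, sterol and mitotic values was not tested beyond the alternative fits. With the skeletal muscle level as a covariate, Fkbp5, Pik3r1 and Jade2 passed. With 1 surrogate variable the same genes passed together with Mvd and Nsdhl, and without vehicle mice 18 and 19 only Fkbp5 did.

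**Figure D5:**
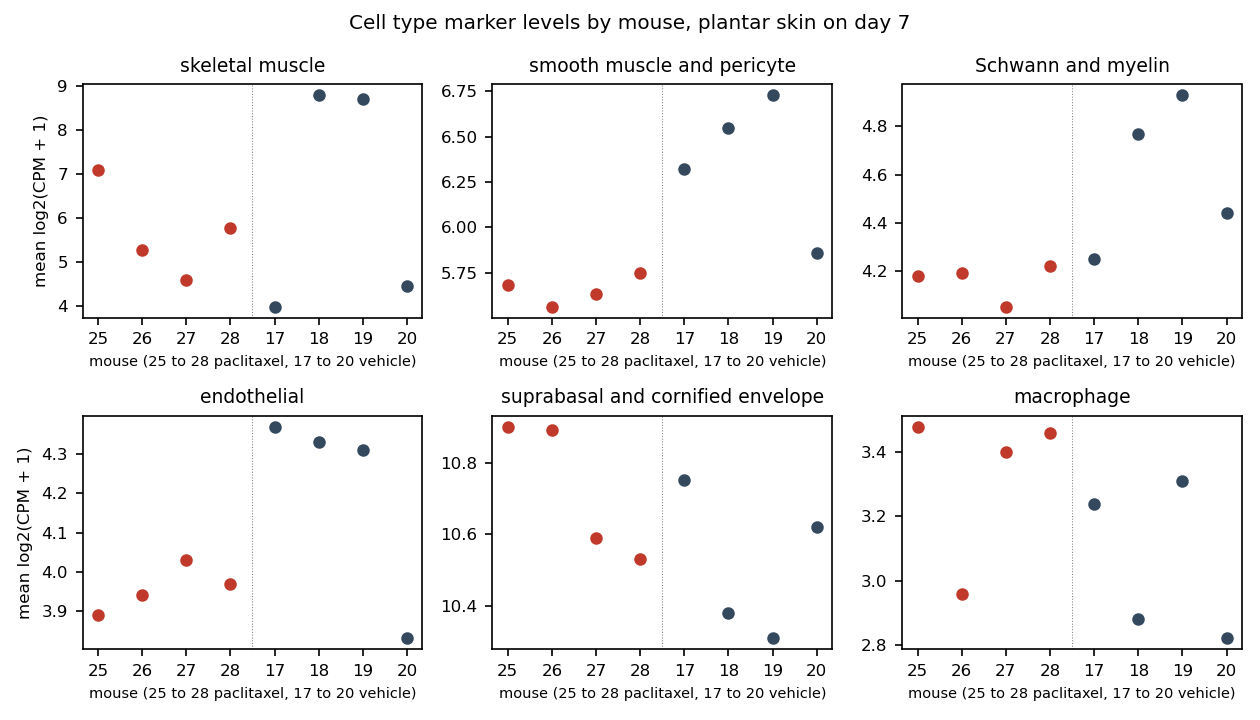
Mean log2(CPM + 1) of each marker list is plotted per mouse on day 7, with paclitaxel mice 25 to 28 left of the dotted line and vehicle mice 17 to 20 right of it. Vehicle mice 18 and 19 stand out at 8.79 and 8.71 for skeletal muscle, while smooth muscle is at 5.56 to 5.75 in all paclitaxel mice and 5.86 to 6.73 in vehicle mice.

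The day 7 effect was set against the effects of the other days, each with its own vehicle mice. No gene passed in edgeR for day 7 against the mean of days 4, 11 and 23 (1809 genes at an unadjusted p under 0.05, DESeq2 62 and voom 514 calls), against day 4 (1834 unadjusted, DESeq2 17, voom 200) or against day 11 (779 unadjusted, DESeq2 4, voom 0). Against day 23 there were 15 genes (0.0807%), all with a more positive effect on day 7. Rfx1, a transcription factor of cilia and other genes, differed most firmly, by 1.09 (SE 0.17, adjusted p = 0.0044). Its level on day 7 was 23.2 to 29.9 CPM in paclitaxel mice and 30.6 to 34.4 CPM in vehicle mice, an estimate of -0.33, and on days 4, 11 and 23 the estimates were -0.72, -0.83 and -1.42, so the day 7 effect was the smallest of the 4 by estimate. Fam110a (1.16), Cbarp (0.91), Krtap3-2 (2.18), Hoxb9 (1.18) and Bclaf1 (0.59) also differed, and all 5 had day 7 estimates between 0.00 and 0.27 beside day 23 estimates between -1.91 and -0.49. Trpv4 and Tubb4b had day 7 estimates of 0.71 and 0.42 beside -0.40 and -0.24 on day 23. The difference calls thus mixed Rfx1, with a day 7 estimate below 0, genes with one near 0 and genes with one above 0. In Rfx1 and those 5 genes vehicle skin was highest on day 23 by mean, but not in Trpv4 or Tubb4b. Vehicle mice averaged 33.8, 32.2, 33.1 and 50.1 CPM of Rfx1 on days 4, 7, 11 and 23. On days 4, 7, 11 and 23 the numbers of genes past the test were 2 (0.0108%), 1, 53 and 875.

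Vehicle mice of day 7 were also set against vehicle mice of the other days, and no gene passed in edgeR (1171 at an unadjusted p under 0.05, DESeq2 5, voom 0). In paclitaxel mice the same contrast gave 11 genes (0.0592%), of which 10 were higher on day 7 (0.0538%) and 1 was lower (0.00538%). Beside Tubb2b, Tubb4b and Tubb2a the higher genes included Ndel1 (log2 difference 0.50), which anchors dynein at microtubules, Egln3 (0.67), an oxygen-sensing prolyl hydroxylase, Kctd11 (0.72), Tmem95 (1.02), Megf6 (0.59), Csnk2a2 (0.43) and the gene model Gm43735 (1.16). Amz2, a metalloprotease gene, was the lower one (-0.32). With 1 library left out the number ran from 5, without paclitaxel mouse 25 or 26, to 865, without vehicle mouse 52 of day 23. It was 0 with 1 surrogate variable and 2 with the muscle covariate, and the skeletal muscle median in this contrast was -2.55. The part of the muscle level in these calls was not tested beyond that. Tmem95 and Kctd11 lie next to each other on chromosome 11, and whether the counting used strand is not stated, so their reads may not be fully separate. The mitotic list gave medians of -0.21 in this contrast of vehicle mice, with 3 of 20 above 0, and 0.25 in that of paclitaxel mice, with 20 of 20 above 0. On days 4, 11 and 23 the list's median paclitaxel effect was -0.07, 0.31 and 0.26. Mki67 averaged 123, 177, 197 and 138 CPM in paclitaxel mice over days 4, 7, 11 and 23, and in vehicle mice 124, 106, 152 and 108 CPM, so paclitaxel skin was highest on day 11 and vehicle skin also.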

How the data were processed

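RNA of plantar skin was sequenced from 32 mice, 4 per treatment and day. The authors trimmed single-end reads with Trimmomatic 0.38, aligned them with STAR to the mouse genome (Ensembl annotation, build m38) and deposited raw counts per gene. Which strand column was counted is not stated in the sources used here, so overlapping and antisense genes are uncertain. The study's methods name ribosomal depletion and the labels name oligo-dT for the libraries. The authors also deposited normalised counts made with DESeq2 size factors, a signal in which all 32 columns equal the raw counts over 1 factor each. The 28 other columns of the tables were empty and not used. Dorsal root ganglia are not analysed here, and some single genes are not reported here. Rows with no gene name (118, with 0.0286% of the counts) were left out, which left 52276 genes.

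Genes were filtered with filterByExpr (18578 tested), scaled by TMM and tested with edgeR 4.0.16 (limma 3.58.1, R 4.3.3), with a robust quasi-likelihood fit of the 8 groups of skin (24 residual degrees of freedom), and Benjamini-Hochberg adjustment ran over every gene tested. Day 7 contrasts compared paclitaxel with vehicle, that effect with the effects of the other days, and each treatment with its own other days. These contrasts share mice. Replicates were separate mice. The skin genes that the study plotted were tested by two-sided exact permutation on the deposited normalised counts, adjusted over 6 genes. Total counts per library were 24114230 to 37948971 on day 7, and the common dispersion had a square root of 0.325. Fold changes of genes under about 1 CPM rest on few counts, and a floor of 3 counts stood for a group at 0. List levels are means of log2(CPM + 1).

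Genes were named by rule: the 6 plotted genes, each gene past an adjusted p of 0.05 on day 7, the 12 annotated genes with the smallest p in each direction at an average log2 CPM of at least 0, of each list the most abundant member and up to 3 with the smallest p, and up to 6 per direction for each difference of effects. Other genes were named after their values were seen. The groups compared, the 40 gene lists (20 pathway and 20 marker lists, 581 entries), the rule and the motifs were chosen with earlier results of these data known. Alternatives were DESeq2 1.42.0, limma voom with quality weights, DESeq2 size factors, no filter, 1 surrogate variable (sva 3.50.0), the skeletal muscle level as a covariate, the 8 day 7 libraries alone and each library left out. A fit without robust weights, and leaving out vehicle mice 18 and 19 together, were added after seeing the data. The edgeR fit of the day 7 comparison and the exact permutation test were tried on simulated data, and the other fits and contrasts were not. Promoters came from RefSeq (GRCm38.p6).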

Additional observations from a re-analysis of the deposited data

Results flagged for a closer look

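In 8 of 242 groups of 4 mice (3.31%), over the named genes and the lists, 1 mouse lay far from the other 3, where chance gives about 1 group in 20. Paclitaxel mouse 25 was that mouse for Mki67 (221 CPM, with 159 to 168 CPM in the other 3), Aurka (20.4 CPM, with 14.8 to 15.6), Hif3a (0.775 CPM, with 0.371 to 0.42) and Jade2 (21.8 CPM, with 25.2 to 25.9). Vehicle mouse 20 stood apart for Hsd17b7, a sterol synthesis gene, at 130 CPM with 90.9 to 94.9 CPM in the other vehicle mice. For the marker lists, on the log2(CPM + 1) scale, vehicle mouse 20 had an endothelial level of 3.83 (4.31 to 4.37 in the others), paclitaxel mouse 26 a macrophage level of 2.96 (3.40 to 3.48) and paclitaxel mouse 27 a mast cell level of 1.84 (2.02 to 2.04).

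The paclitaxel effect differed between day 7 and day 23 in 15 genes by the edgeR test of the difference. Among them, beside Rfx1 (1.09), Fam110a (1.16), Cbarp (0.91), Krtap3-2 (2.18), Hoxb9 (1.18), Bclaf1 (0.59), Trpv4 (1.11) and Tubb4b (0.67), were Sec14l2 (log2 difference 1.27), Sertad1 (0.98), Fchsd1 (0.90), H2-DMb2 (1.79), Gpld1 (1.01) and Tagap1 (0.87), with adjusted p between 0.0044 and 0.0432. Of these, the 6 from Sec14l2 to Tagap1 were named after their values were seen. No gene passed with 1 surrogate variable or without vehicle mice 18 and 19.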

How the results depend on the processing

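The single day 7 call, Fkbp5, passed under every alternative run (adjusted p 2.29e-10 to 0.042 over the settings other than leaving out 1 library). The number of day 7 calls was 32 in DESeq2, 34 in voom, 47 with the 8 libraries alone, 5 with 1 surrogate variable and 3 with the muscle covariate, and 1 to 2 with 1 library left out (2 without vehicle mouse 6 or 7 of day 4, paclitaxel mouse 27 or vehicle mouse 50 of day 23). Against the mean effect of the other days, DESeq2 called 62 and voom 514, and leaving out 1 library gave 0 to 14 (14 without vehicle mouse 52 of day 23, and 1 to 4 without mice 8, 9 or 27). Against day 4, DESeq2 called 17 and voom 200, and the range was 0 to 2 (2 without mouse 9 and 1 without 27). Against day 11, DESeq2 called 4, and the range was 0 to 0. Against day 23 (15), counts were 24 with DESeq2 size factors, 209 in DESeq2, 2386 in voom, 0 with 1 surrogate variable, 1 with the muscle covariate, 7 without robust weights and 0 without mice 18 and 19, and 1 to 1528 with 1 library left out (1528 without mouse 52, 65 without 28, 25 to 30 without 8, 9, 12 or 17, 4 without 18, 25, 33, 34 or 51, and 1 without 19, 26, 49, 57, 58 or 59). Vehicle mice of day 7 against other days gave 5 in DESeq2 and 0 to 1 with 1 library left out (1 without mouse 5, 7, 17, 50 or 51). Paclitaxel mice (11) gave 42 with DESeq2 size factors, 818 in DESeq2, 2161 in voom, 36 with no filter, 0 with 1 surrogate variable, 2 with the muscle covariate, 7 without robust weights and 6 without mice 18 and 19, and 5 to 865 with 1 library left out (865 without mouse 52, 346 to 426 without 9, 41 or 60, 21 to 163 without 6, 8, 10, 12, 17, 19, 20, 28, 36, 44, 50 or 51, and 5 to 7 without 5, 11, 18, 25, 26, 33, 34, 42, 43, 49, 57 or 59). The cause of these shifts was not tested.

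Estimates near 0 turned sign. Tbp was -0.02 with 1 surrogate variable, -0.01 with the muscle covariate and with 8 libraries, -0.13 without mice 18 and 19 and -0.05 to 0.08 with 1 library left out. Pgk1 was 0.05 with 1 surrogate variable, 0.02 with the muscle covariate, 0.08 without mice 18 and 19 and -0.07 to 0.03 with 1 library left out. Rplp0 was -0.01 with 1 surrogate variable, Cdkn1a -0.05 and Sprr1b -0.03 without mice 18 and 19, and Pcna -0.02 to 0.15 with 1 library left out. Atp2a1 was 0.28 with 1 surrogate variable and 1.82 without mice 18 and 19. The differences of normalised counts ran from -19.4 to 35.7 for Tbp and -170 to 86.5 for Pgk1 with 1 mouse left out. The red blood cell median was -3.74 to -1.39 with 1 library left out. The skeletal muscle median was 0.33 with 1 surrogate variable and 1.80 without mice 18 and 19, and that of hair follicle genes -0.28 in voom and -0.89 to 0.75 with 1 library left out. Depth limits Mmp13, Cldn22 and S100a9, with 119 or fewer counts in 1 or both groups. No paired analysis was possible because the groups share no replicate numbers.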

Other observations

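The other gene lists moved little on day 7. Oxidative stress genes had a median log2 fold change of 0.03 over 17 tested genes, and 1 lay wholly above, where 2.72% of all genes did. That was Gpx1, a glutathione peroxidase gene, with 556, 565, 506 and 569 CPM in paclitaxel mice, against 494, 401, 380 and 401 CPM in vehicle mice (0.39, SE 0.11, adjusted p = 0.457 in edgeR). Endoplasmic reticulum stress genes had a median of -0.07, cytosolic heat shock genes of 0.11 and neurotrophic factor genes of 0.03. Herpud1, which helps to remove misfolded proteins from the endoplasmic reticulum, had an estimate of -0.21 and lay wholly lower. Hsph1, a large heat shock protein gene, had 0.33 and lay wholly higher. Each was the only such gene of its list, of 14 and 12 tested, where 3% of all genes lay wholly lower and 2.72% wholly higher.

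Among marker lists, fibroblast genes had a median of 0.13, melanocyte genes of 0.14, eccrine sweat gland genes of -0.16, Merkel cell genes of -0.14 and bone and cartilage genes of -0.09, and no member of these separated the groups. Hair follicle genes, with a median of 0.18, had a mean level of 1.73, 3.03, 4.41 and 3.19 on the log2(CPM + 1) scale in paclitaxel mice, against 2.84 to 4.06 in vehicle mice, so paclitaxel mice 25 and 27 were the lowest and the highest of the 8.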
